A study of Homo sapiens with 6 samples.

Results

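H4K16ac peaks alone are the peaks of acetylated lysine 16 of histone H4 that no peak of the other 4 antibodies' lists overlapped, by even 1 bp, in HEK293T cells. They were sought on chromosomes 1 to 22 and X, at least 5 Mb from both chromosome ends in the human build hg38, a span of 2801 Mb. In this span 16219 of 48191 H4K16ac peaks (33.7%, exact binomial 95% interval 33.2 to 34.1) were alone. These peaks were chosen by the overlap of called peaks between the lists, so this share, their width and their distance to other peaks are a description.

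HEK293T is an established line derived from human embryonic kidney cells that expresses the SV40 large T antigen. Its untreated, formaldehyde-fixed chromatin was immunoprecipitated and sequenced (ChIP-seq) with antibodies to H4K16ac, to H2A.Z, a histone variant (a CST and an Abcam antibody, called H2AZ CST and H2AZ Abcam), to the variant H3.3 and to dimethylated lysine 79 of histone H3 (H3K79me2). All 5 libraries, and an input library not used here, came from the same unperturbed line, with 1 library per antibody and no replicate. A peak in 1 list and not in another is therefore a difference between 2 libraries and their calling thresholds. Every interval below covers counting error only, and the read depth of the libraries is unknown here.

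The acetyl group on lysine 16 of histone H4 is written mainly by KAT8 (also called MOF), which acts in the MSL complex and in the NSL complex, and is removed by deacetylases that include SIRT1 and SIRT2. It weakens the packing of nucleosomes against each other. H2A.Z and H3.3 are replacement histones that are enriched at the starts of active genes, and H3K79me2, written by DOT1L, marks the part of transcribed genes that follows the start. A peak alone thus lies where H4K16ac passed its threshold and none of these neighbours did.

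Few promoters carried such a peak, and their sequences are shown because their CpG content differed from that under other H4K16ac peaks. Of 13523 protein-coding promoter windows in the span (300 bases each, 250 before and 50 after the annotated start, from the RefSeq table of GRCh38.p14), 148 (1.09%) met an H4K16ac peak alone and no other H4K16ac peak. The 5 whose peak was strongest, with its summit in the window, are shown over the 250 bases before the start, read 5′ to 3′ on the gene's strand, with capitals marking CpG dinucleotides. They belong to C11orf16 (chr11:8932948-8933197, minus strand), CCDC185 (chr1:223393165-223393414, plus), CFAP251, a gene of cilia and flagella (chr12:121918342-121918591, plus), NODAL, a ligand of early embryonic patterning (chr10:70441682-70441931, minus), and GPR25, an orphan receptor (chr1:200872731-200872980, plus).
C11orf16: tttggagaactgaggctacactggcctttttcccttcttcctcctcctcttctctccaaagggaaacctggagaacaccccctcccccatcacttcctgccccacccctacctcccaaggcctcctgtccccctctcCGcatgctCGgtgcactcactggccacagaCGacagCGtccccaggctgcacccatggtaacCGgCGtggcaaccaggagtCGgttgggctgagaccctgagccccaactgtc
CCDC185: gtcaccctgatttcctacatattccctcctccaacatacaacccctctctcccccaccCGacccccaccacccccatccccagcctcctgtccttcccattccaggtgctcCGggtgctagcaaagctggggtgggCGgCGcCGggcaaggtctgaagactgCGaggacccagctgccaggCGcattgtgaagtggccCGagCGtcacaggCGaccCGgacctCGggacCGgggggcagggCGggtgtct
CFAP251: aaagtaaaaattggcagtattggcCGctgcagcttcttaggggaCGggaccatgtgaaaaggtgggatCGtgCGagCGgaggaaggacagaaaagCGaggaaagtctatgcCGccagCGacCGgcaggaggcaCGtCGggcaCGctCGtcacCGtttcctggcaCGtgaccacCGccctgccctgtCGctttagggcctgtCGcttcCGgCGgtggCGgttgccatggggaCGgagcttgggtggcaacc
NODAL: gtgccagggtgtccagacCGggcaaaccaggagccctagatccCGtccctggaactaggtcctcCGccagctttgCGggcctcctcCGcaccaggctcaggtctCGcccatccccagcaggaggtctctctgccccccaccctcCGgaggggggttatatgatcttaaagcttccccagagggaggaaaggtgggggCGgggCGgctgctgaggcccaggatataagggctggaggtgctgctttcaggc
GPR25: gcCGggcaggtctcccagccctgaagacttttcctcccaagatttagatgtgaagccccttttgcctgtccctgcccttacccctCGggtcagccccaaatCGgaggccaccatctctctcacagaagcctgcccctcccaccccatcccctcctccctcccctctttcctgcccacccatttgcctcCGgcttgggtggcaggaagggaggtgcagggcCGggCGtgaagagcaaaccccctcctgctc
For contrast, the next 2 are the windows with the strongest summits among H4K16ac peaks that overlapped other lists. They belong to DCTPP1, a nucleotide-hydrolysing enzyme (chr16:30429801-30430050, minus), and INKA2, an inhibitor of a kinase (chr1:111755798-111756047, minus), and each of these peaks overlapped all 4 other lists. Exons were not assigned, so any window shown may hold transcribed or coding sequence, of the named gene or of a neighbour.
DCTPP1: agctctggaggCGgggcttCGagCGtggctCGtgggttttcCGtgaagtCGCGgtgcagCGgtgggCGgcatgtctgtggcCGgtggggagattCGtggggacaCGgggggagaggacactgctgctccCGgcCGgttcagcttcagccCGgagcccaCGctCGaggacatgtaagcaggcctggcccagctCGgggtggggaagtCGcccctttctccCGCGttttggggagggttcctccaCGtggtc
INKA2: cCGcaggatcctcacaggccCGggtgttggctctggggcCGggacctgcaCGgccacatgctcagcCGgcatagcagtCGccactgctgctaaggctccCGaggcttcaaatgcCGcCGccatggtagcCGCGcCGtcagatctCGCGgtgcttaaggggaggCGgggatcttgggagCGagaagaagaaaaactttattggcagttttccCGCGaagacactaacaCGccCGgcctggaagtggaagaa

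These 5 alone sequences held 7, 14, 22, 9 and 6 CpG dinucleotides in the order shown, and those of DCTPP1 and INKA2 held 22 and 20. The CpG observed-to-expected ratio, which divides the CpG count by that expected from the C and G content, was 0.33 for C11orf16, 0.52 for CCDC185, 0.94 for CFAP251, 0.34 for NODAL and 0.26 for GPR25. It was 0.79 for DCTPP1 and 0.84 for INKA2, values that may not describe upstream sequence alone, since exons were not assigned. CFAP251 was the member of the 5 that resembled the contrast windows, and an H3.3 peak lay 47 bp from its H4K16ac peak. An H3.3 peak also lay 260 bp from the peak of NODAL and 737 bp from that of CCDC185, both of lower ratio. For C11orf16 and GPR25 the gaps to H3.3 were 21102 and 17889 bp.

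The same contrast held over all such windows, but it moved with the other lists, which the rule keeps away from alone peaks. The median CpG ratio was 0.43 (95% interval 0.34 to 0.51, n = 148) under H4K16ac peaks alone, against 0.83 (0.82 to 0.84, n = 3339) under other H4K16ac peaks. The median CpG count per window was 12 (9 to 14) under alone peaks and 27 (27 to 28) under the others. In windows with no H4K16ac peak the median ratio was 0.73 (0.72 to 0.74, n = 10027), and their middle 50% ran from 0.31 to 0.89, so these windows spanned both kinds. GC content differed less, at 62.5% (61.3 to 63.3) under alone peaks and 67.0% (66.7 to 67.3) under the others. A further 9 windows met both kinds of peak. Some windows of neighbouring genes overlap or are the same bases. The intervals here and for the motifs below count each window separately and do not allow for this.

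A peak of H2AZ CST lay in 0.676% of the windows under alone peaks and in 91.5% of those under other H4K16ac peaks, and one of H2AZ Abcam in 0.676% and 93.2%. Among windows that no other list touched, the median CpG ratio was 0.43 (0.34 to 0.51, n = 144) under alone peaks, 0.51 (0.32 to 0.78, n = 21) under other H4K16ac peaks and 0.25 (0.24 to 0.26, n = 3773) where there was no H4K16ac peak. Windows with no H4K16ac peak that at least 1 other list touched had a median of 0.84 (0.83 to 0.84, n = 6254), close to the 0.83 under other H4K16ac peaks. The low ratio under alone peaks was thus not particular to them: where other lists were missing, windows with an alone peak had a higher median CpG ratio than windows with no H4K16ac peak. GC content in windows free of other lists was 62.5% (61.3 to 63.3) under alone peaks and 49.0% (48.7 to 49.7) with no H4K16ac peak.

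**Figure D1:**
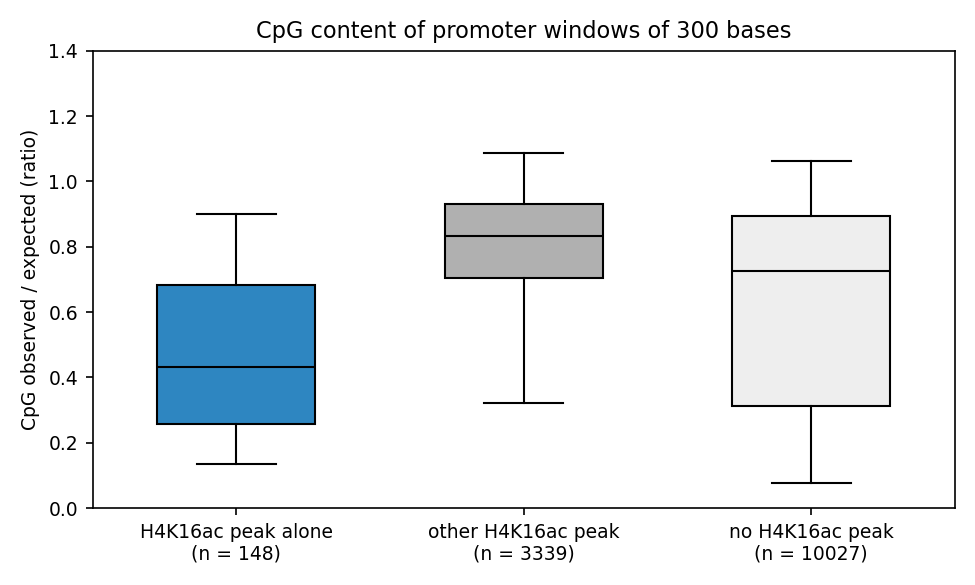
CpG observed-to-expected ratio of promoter windows of 300 bases, by the H4K16ac peak that overlapped them. Boxes show the median and the middle 50%, whiskers the 5th and 95th percentiles. The box under alone peaks (median 0.43) ends below the lower edge of the box under other H4K16ac peaks (median 0.83), of which 91.5% also met an H2AZ CST peak.

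A total of 4 short motifs were searched on both strands of these windows, and the strings are letters only, not sites of a factor. GGGCGG, the core of the GC box, was found in 51.4% of windows under alone peaks (43.0 to 59.6), in 75.1% under other H4K16ac peaks (73.6 to 76.6) and in 58.2% of all windows. TATAAA was found in 9.46% (5.27 to 15.4), 4.34% (3.68 to 5.09) and 9.18% of the same classes. CCAAT occurred in 31.1% of windows under alone peaks and 30.6% under the others, against 36.3% of all windows. CACGTG occurred in 10.1%, 11.7% and 8.84%. The share with GGGCGG under alone peaks lay below that of other H4K16ac windows beyond counting error, and the 52.7% of windows with no H4K16ac peak lay within the interval of the alone class. The share with TATAAA under other H4K16ac peaks lay below the interval of the alone class, and the 10.8% of windows with no H4K16ac peak lay within it. The shares of CCAAT and CACGTG under other H4K16ac peaks fell within the intervals of the alone class.

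Most alone peaks lay inside genes and away from gene ends. Protein-coding genes of at least 1 kb held 71.7% of alone summits (71.0 to 72.4) outside the 1 kb windows at their ends, against 48.9% of the other H4K16ac summits (48.4 to 49.5). These stretches made up 40% of the bases of the span. Gene-end windows, which are 2.22% of the span, held 7.52% of alone summits (7.11 to 7.93) and 33.2% of the others (32.7 to 33.7). The share in other annotated genes was 5.35% among alone peaks and 5.13% among the others. Of the 868 alone peaks there, 617 (71.1%) lay in long noncoding RNA genes, a share for which no background is given here. Outside annotated genes lay 15.5% of alone summits (14.9 to 16) and 12.7% of the others (12.4 to 13.1), in 44.4% of the span.

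The nearest relatives of these peaks held larger shares at gene ends. H4K16ac peaks that overlapped H3.3 and no other list, 9284 in number, lay inside protein-coding genes away from ends in 72.2% of cases (71.3 to 73.1) and at gene ends in 15.3% of cases (14.6 to 16). The share inside genes was thus not particular to alone peaks, at 71.7% (71.0 to 72.4), and the intervals overlap. The 8237 H3.3 peaks that overlapped no other list, 17.6% of 46883 H3.3 peaks, lay inside protein-coding genes in 52.2% of cases (51.1 to 53.3), at gene ends in 16.4% and outside annotated genes in 24.3% (23.4 to 25.2). Both counts share the H4K16ac and H3.3 lists with the alone peaks.

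**Figure D2:**
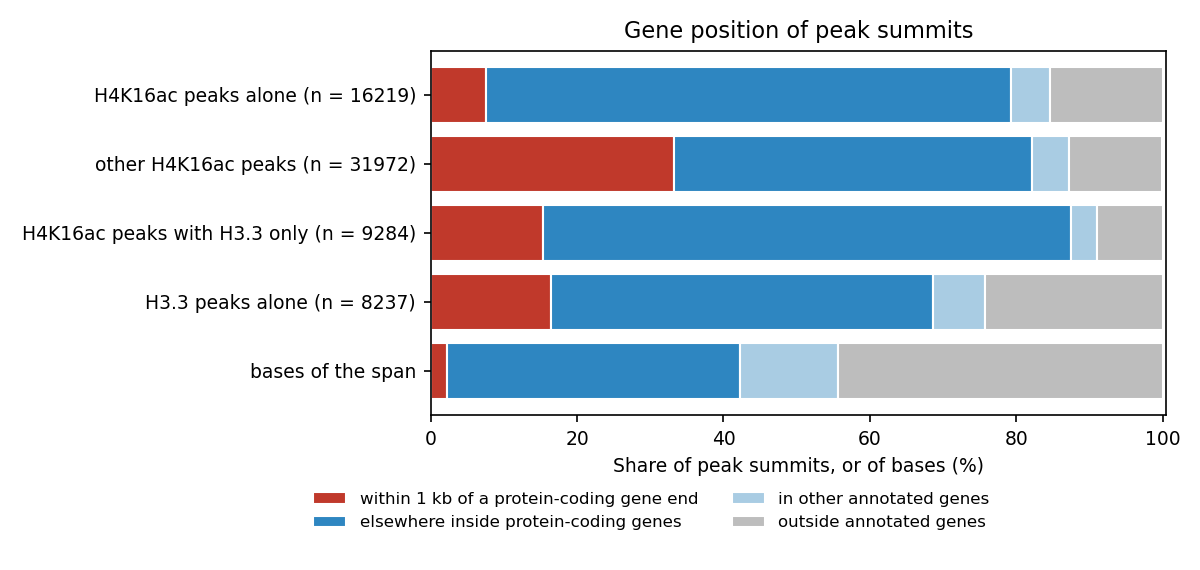
Share of peak summits by gene position for H4K16ac peaks alone, other H4K16ac peaks, H4K16ac peaks with H3.3 only and H3.3 peaks alone, and of the bases of the span in the last bar. The gene-end share of H4K16ac peaks alone (7.52%) is the smallest of the 4 peak classes, and their share inside protein-coding genes (71.7%) exceeds the 40% of bases found there.

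Along genes, alone peaks became more frequent towards the far end. Strand was known for 2976 of 3665 host genes on the chromosomes that the promoter table covers (81.2%), and 10258 protein-coding genes of at least 10 kb with a strand were divided into 10 equal segments from start to far end. The first segment held 3.81% of 9650 alone summits (3.44 to 4.21), the fifth 8.29% (7.75 to 8.86) and the last 21.8% (21 to 22.6). Each segment held more alone summits than the segment before it. Other H4K16ac peaks piled up in the first segment, with 32.8% of 17149 summits (32.1 to 33.5), stayed between 5.58% and 6.34% from the third to the seventh, and reached 14.6% (14.1 to 15.1) in the last. A summit in overlapping genes was counted in each.

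The rule removes peaks where other lists lie, and these lie mostly at gene starts. The count was therefore also divided by the bases that no other list covered. This division does not take away the effect of the rule, which left 368 H4K16ac summits in the first segment and removed 5627. The first segment held 4.86 alone peaks per Mb of such bases, the fifth 8.62 and the last 22.4. The uncovered length was 75.7 Mb in the first segment and 93.7 Mb in the last. Of all H4K16ac summits in the first segment 6.14% were alone (5.54 to 6.78), and from the fifth segment to the last this share lay between 44.1% and 50.2%. Between the fifth and the last segment the other H4K16ac peaks also became more frequent, from 5.92% of their summits to 14.6%. The rise over that part of genes was thus shared by both kinds of H4K16ac peak.

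**Figure D3:**
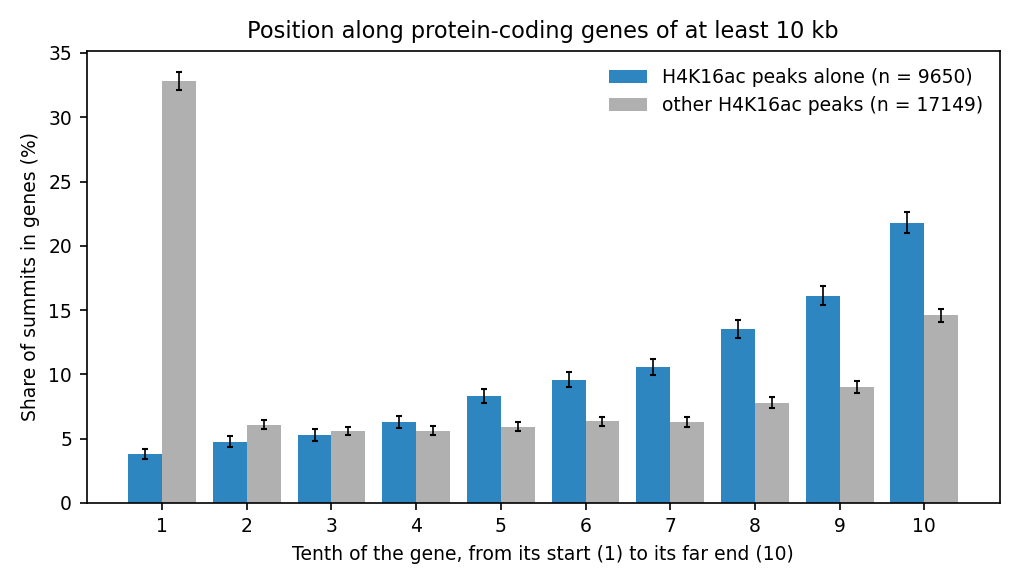
Share of summits in each of 10 equal segments of protein-coding genes of at least 10 kb, from the start (1) to the far end (10), with exact binomial 95% intervals, for H4K16ac peaks alone and other H4K16ac peaks. Alone peaks climb from left to right up to 21.8% in the last segment, and the other H4K16ac peaks have their maximum of 32.8% in the first.

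Gene ends showed the same orientation, but no count per uncovered base was made for them. The rule removes peaks where other lists lie, mostly at gene starts, and so itself lowers the share of alone peaks near starts. Of 1219 alone peaks at protein-coding gene ends (within 1 kb), 51.2% (48.3 to 54.0) lay near a far end only and 26.6% (24.1 to 29.2) near a start only. Of 10616 other H4K16ac peaks at gene ends, 13.7% (13.0 to 14.3) lay near a far end only and 65.4% (64.5 to 66.3) near a start only. Strand was unknown for 19.7% of these alone peaks and 17.9% of the others. The 5 strongest alone peaks at gene ends were led by C11orf16 (chr11:8932813-8933094, −log10 q 25.7), whose summit was 32 bp from the gene and whose nearest peak of another list was 19.3 kb away. It was followed by WNT11, a secreted WNT ligand, with a −log10 q of 22.3, SPEM1, a gene of sperm maturation, at 21.2, the end of PKLR, the pyruvate kinase of liver and red cells, inside HCN3 at 19.6, and the end of PHLDB1 inside TREH at 19.3.

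Alone peaks were narrow and weak within their own list. Their median width was 226 bp (224 to 228), against 304 bp (301 to 306) for the other H4K16ac peaks, and the narrowest peak of the list had 183 bp. The widest alone peak had 3062 bp, the widest of the others 5072 bp. The −log10 q and the fold enrichment at the summit are the authors' values for each peak. The median −log10 q was 6.14 for alone peaks, with a middle 50% from 4.75 to 7.62, and 7.94 for the others, with a middle 50% from 5.76 to 11.6. The highest value was 32.9 among alone peaks and 135.0 among the others. Median fold enrichment was 6.06 in alone peaks and 6.96 in the others.

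The share of peaks that were alone fell with strength and with width. By quartile of −log10 q, weakest first, it was 49.8%, 39.7%, 31.3% and 12.8%. From the narrowest to the widest quartile it was 50.9%, 38.3%, 30% and 15.4%. A wider peak has more bases in which another can overlap it. Within the narrowest quartile, of 183 to 203 bp, the share still went from 54.5% at the lowest to 42.2% in the third quartile of −log10 q, and it was 24.5% in the 53 peaks of the highest. Within the widest it went from 34.5% to 8.44%.

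The strongest alone peak lay in SNORC, which encodes a membrane proteoglycan of cartilage (chr2:232871784-232872618, 835 bp, −log10 q 32.9), 3.2 kb from the nearest H3.3 peak and 138 kb from the nearest H3K79me2 peak. Next came peaks in DAGLA, the enzyme that makes the endocannabinoid 2-arachidonoylglycerol (30.9), LRP1, a receptor of lipoproteins (29.1), FBLN1, a fibulin of the extracellular matrix (27.4), and CELSR2, an adhesion receptor of planar polarity (26.1). A peak at 25.7 lay in SOX10, a transcription factor of the neural crest, inside the span of POLR2F. The remaining 4 of the strongest 10 lay at C11orf16 (25.7), in PLA2G4B and its readthrough gene (25.7), in ELFN2, a gene of synaptic adhesion (25.2), and outside annotated genes 31.2 kb from SUSD4, a complement regulator (24.6). An H3.3 peak was the nearest of any other list for 7 of these 10, at 0.267 to 3.48 kb.

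The 5 widest alone peaks all lay inside genes. The widest, of 3062 bp, lay in BSN, a scaffold of presynaptic active zones (chr3:49651615-49654676), followed by MICAL3 (2002 bp), the semaphorin receptor gene PLXNA1 (1910 bp), TECPR1, which acts in autophagy (1609 bp), and UNC13D, which acts in granule release (1593 bp). An H3.3 peak was the nearest of any other list in each case, at 0.518 to 4.04 kb.

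Alone did not mean isolated. The gap, counted in bases between facing edges, had a median of 2210 bp (2128 to 2288) to the nearest peak of any other list. It was at most 200 bp for 7.42% of alone peaks, at most 1 kb for 32.6% and over 10 kb for 20.9%. H3.3 was the closest list and H3K79me2 the most distant. Median gaps were 4111 bp (3950 to 4292) to H3.3, 8690 bp (8469 to 8968) to H2AZ CST, 11069 bp (10776 to 11355) to H2AZ Abcam and 36310 bp (35433 to 37382) to H3K79me2. H3.3 was nearest, or tied for nearest, for 51.3% of alone peaks, H2AZ CST for 25.6%, H2AZ Abcam for 15.2% and H3K79me2 for 7.97%. The lists differ in number of peaks in the span (46883 for H3.3, 42266 for H2AZ CST, 35555 for H2AZ Abcam and 44898 for H3K79me2). Among H3.3, H2AZ CST and H2AZ Abcam, the list with more peaks had the smaller median gap. H3K79me2 departed from this order. The part of peak number in these gaps was not tested.

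H3K79me2 was the list most often missing over long distances. No H3K79me2 peak lay within 100 kb of 22.2% of alone peaks, against 4.83% for H3.3, 3.61% for H2AZ CST and 4.46% for H2AZ Abcam. H4K16ac peaks with H3.3 only were nearer to H3K79me2, with a median gap of 12149 bp (11715 to 12576), and nearer to H2AZ CST, at 5757 bp (5558 to 5947). Within 5 kb of an alone peak there was a peak of none of the other lists in 33.3% of cases and of all 4 in 4.41%.

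**Figure D4:**
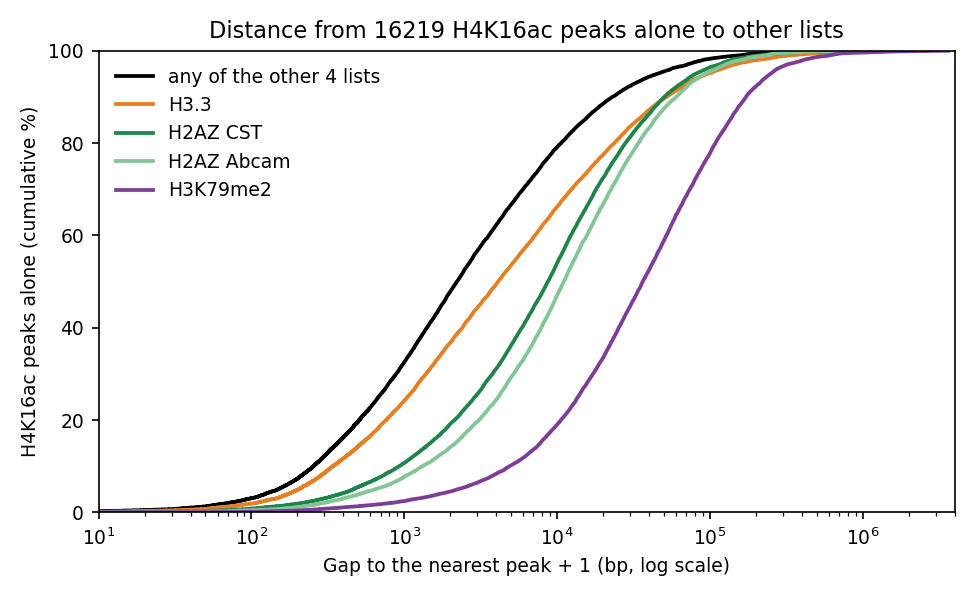
Cumulative share of the 16219 H4K16ac peaks alone by the gap to the nearest peak of each other list (log axis, gap + 1 bp). The H3.3 curve lies leftmost of the single lists up to gaps of 10 kb (66.2% of peaks), and the H3K79me2 curve lies rightmost, with 19% of peaks within 10 kb.

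The edge of the rule was thin. Gaps of at most 10 bp were found in 52 alone peaks, and 51 excluded H4K16ac peaks overlapped other lists by at most 10 bp in all. Just inside were a peak in LCK, a kinase of T cells, that touched an H2AZ CST peak, a peak in GPR37L1 that touched an H3.3 peak, and a peak in FAM53B 1 bp from an H3K79me2 peak. Just outside, with 1 bp of overlap, were peaks in ADAM15 (H3.3), near THY1 (H2AZ CST) and in ZNF746 (H3K79me2).

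Strength varied little with remoteness. The median −log10 q was 6.14 (6.11 to 6.14) in the 5283 alone peaks within 1 kb of another list and 5.76 (5.46 to 6.14) in the 281 beyond 100 kb, where the intervals overlap. Median width was 233 bp (229 to 236) within 1 kb, 216 bp (213 to 219) at 10 to 100 kb and 202 bp (193 to 211) beyond 100 kb. Protein-coding genes, away from their ends, held 50.5% of the peaks beyond 100 kb and 70.3% of those within 1 kb. Examples on chromosomes 11, 4, 2 and 5 lay 704 to 1059 kb from other lists, with −log10 q between 4.89 and 6.14 and widths of 183 to 235 bp. None of these 4 peaks lay in a protein-coding gene. Outside annotated genes, where the median −log10 q of alone peaks was 5.72, the strongest was the peak near SUSD4. The following 4 had −log10 q of 18.9 to 19.1, near PNLDC1, which trims piRNAs, PJA1, a ubiquitin ligase gene on chromosome X, MLYCD, a malonyl-CoA decarboxylase, and SH3TC1.

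Many alone peaks lay in runs of 2 or more with no peak of another list between them. The nearest other alone peak lay at a median gap of 2160 bp, closer than the nearest H4K16ac peak that was not alone (3714 bp). The rule has a part in this, since every H4K16ac peak wholly between 2 consecutive peaks of the other lists is alone. No expected gap was computed. Other H4K16ac peaks lay 1020 bp from each other at the median. In the 9060 stretches between consecutive peaks of the other 4 lists that held any alone peak, 62.6% held 1 and 3.21% held more than 5. Stretches of 2 or more held 65.0% of alone peaks. The fullest stretches, singled out after their values were seen, held 20 alone peaks around AQP1, a water channel of the kidney tubule, and MINDY4 (chr7:30772199-30932818, 161 kb). Stretches in RET, the receptor kinase for GDNF that guides kidney and enteric nerve development (chr10:43106675-43137129, 30.5 kb), and CACNA2D2, a calcium channel subunit (54.7 kb), held 19 each. SHANK2, a postsynaptic scaffold (44.9 kb), and WNK2, a kinase (24.3 kb), followed with 18 each.

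Host genes were a minority of genes, and a few of them held many of the peaks. Of 16867 protein-coding genes of at least 1 kb that lie wholly in the span, 3733 (22.1%) held at least 1 alone summit, against 57.7% that held any H4K16ac summit. In 44.8% of host genes there was 1 alone peak. The 245 genes with 10 or more held 27.8% of all alone peaks. All H4K16ac peaks were alone in 734 genes. Host genes had a median length of 38.1 kb, against 26.3 kb for the 5999 genes with H4K16ac peaks of which none was alone. By length the share of genes that were hosts went from 11.2% (10.3 to 12.2) at 1 to 10 kb to 24.6% (23.6 to 25.7) at 10 to 50 kb and 28.5% (26.8 to 30.2) at 100 to 500 kb. Alone peaks per Mb of gene ran the other way, at 31.6, 24.9 and 7.99 in the same classes and 2.01 in the 291 genes over 500 kb.

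SORCS2, a sorting receptor for proneurotrophins, held the most alone peaks, 86 of its 120 H4K16ac peaks (chromosome 4, 7192538 to 7742827). IQSEC1, an exchange factor for ARF6, held 83 of 143, SHANK2 68 of 76 and ZMIZ1, a transcriptional coregulator, 53 of 87. Other hosts of many alone peaks were HSPG2, the basement membrane proteoglycan perlecan (52 of 71), CAMTA1, a calmodulin-binding transcription activator (51 of 66), CAMK2B, a calcium-dependent kinase of neurons (46 of 76), LINGO1, a neuronal membrane protein (46 of 63), and DNAH1, an axonemal dynein heavy chain (45 of 59). SORCS2, SHANK2 and DNAH1 held no H3K79me2 summit. The same was true of 65 (26.5%) of the 245 hosts of 10 or more alone peaks. It was also true of 211 of the 853 genes with at least 10 H4K16ac peaks, so this lack was not particular to such hosts. CAMTA1 held 27 H3K79me2 summits, IQSEC1 22 and ZMIZ1 14, so that alone peaks also occurred in genes with much H3K79me2.

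Per length, the densest genes of 20 kb or more with at least 5 alone peaks were the readthrough gene JMJD7-PLA2G4B (69.8 alone peaks per 100 kb, shared in part with PLA2G4B), ALS2CL (56.7), OGDHL, a relative of a citric acid cycle enzyme (50.5), DNAH1 (50.2), CAPN5, a calpain protease (49.0), RET (48.8) and COL7A1, the collagen of anchoring fibrils (48.0). HSPG2 (45.2), DAGLA (45.0) and NPEPL1 (44.9) completed the 10. RET held 26 alone peaks of 29 H4K16ac peaks, with 5 H3.3, 3 H2AZ CST, 6 H2AZ Abcam and no H3K79me2 summits. CAPN5 held 29 of 34 and also no H3K79me2 summit.

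**Figure D5:**
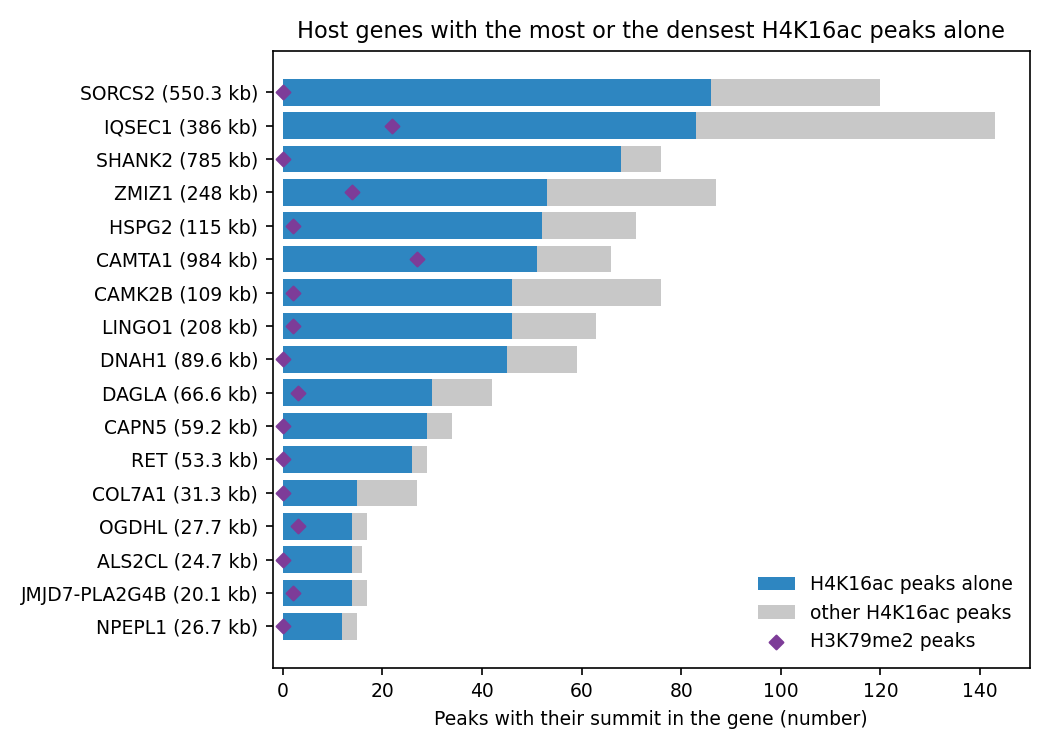
Number of H4K16ac summits in genes among those with the most, or the most per length, H4K16ac peaks alone, split into alone and other, with the number of H3K79me2 summits as diamonds. SORCS2 leads with 86 alone peaks and no H3K79me2 summit, and CAMTA1 has 51 alone peaks beside 27 H3K79me2 summits.

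Among the 853 genes with at least 10 H4K16ac peaks, the share alone was highest in RBM19, which acts in ribosome assembly (13 of 13), and TGM1, the transglutaminase of the skin barrier (10 of 10, with no summit of any other list). TTC7A, a scaffold of a lipid kinase complex, followed with 23 of 24, CHCHD6, a subunit of the mitochondrial cristae complex, with 15 of 16, and KLHL29 with 41 of 45. In these 853 genes the median share alone was 46.4% in the 211 with no H3K79me2 summit and 38.5% in the 642 with at least 1. The rule itself lowers the second value, since overlap with H3K79me2 excludes a peak.

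Host genes still carried the other lists elsewhere. Among genes of 50 to 100 kb, H2AZ CST had a summit in 91.4% of 673 host genes, in 94.5% of the 910 genes whose H4K16ac peaks were never alone and in 59.1% of the 1035 genes with no H4K16ac peak. For H2AZ Abcam these shares were 88.0%, 94.7% and 57.6%, and for H3.3 they were 85.7%, 92.2% and 39.0%. H3K79me2 showed the widest distance between both kinds of H4K16ac gene, at 64.9% of host genes, 84.7% of the genes never alone and 50% of genes with no H4K16ac peak.

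Gene families differed in how many members were hosts, read against 22.1% of all genes. Of 68 ribosomal protein genes in the span none was a host (0%, 0 to 5.28), although 43 held an H4K16ac summit. Of 393 ZNF zinc finger genes 43 were hosts (10.9%, 8.03 to 14.5), led by ZNF423 with 16 alone peaks and the readthrough gene ZNF664-RFLNA with 11. Of 180 olfactory receptor genes 2 were hosts (1.11%, 0.135 to 3.96), the overlapping OR10C1 and OR11A1, which shared a single alone peak, and 3 held any H4K16ac summit. Shares were higher in collagens, with 15 of 34 (44.1%, 27.2 to 62.1), led by COL27A1 (26 alone of 33) and COL7A1 (15 of 27), and in potassium channel genes, with 34 of 89 (38.2%, 28.1 to 49.1), led by KCNAB2 (16 of 27) and KCNC1 (13 of 16). Cadherins and protocadherins had 30 of 88 (34.1%, 24.3 to 45.0), led by CDH23 of the inner ear (38 of 62) and CDH16 of the kidney (4 of 6). In all families a summit in overlapping genes was counted in each, and the intervals do not allow for members that share a peak. Solute carriers had 100 of 351 (28.5%, 23.8 to 33.5), led by SLC38A12 (19 of 25) and SLC5A10 (18 of 45).

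Length went along with some of these shares. The median length was 154 kb for collagens, 113 kb for cadherins, 33.4 kb for potassium channels, 5.05 kb for ribosomal protein genes and 27.6 kb for all genes. Of 55 keratin genes 15 were hosts (27.3%, 16.1 to 41.0), led by KRT7 (4 of 4) and KRT83 (2 of 2), at a median length of 6.43 kb. Among all genes of 1 to 10 kb 11.2% were hosts (10.3 to 12.2). The medians of ribosomal protein, keratin and olfactory receptor genes (6.93 kb) fall in this class. Of the 291 genes over 500 kb 80 were hosts (27.5%, 22.4 to 33), led by SORCS2 and SHANK2.

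The machinery of the mark itself was near the background. Of 16 writers, partners and erasers of H4K16ac in the span 3 were hosts (18.8%, 4.05 to 45.6). SIRT2, a deacetylase of this residue, held 4 alone peaks among 7 H4K16ac peaks, and the acetyltransferase gene KAT8 and the deacetylase gene HDAC1 held 1 of 2 each. Of 18 genes of DOT1L partners and elongation factors 4 were hosts (22.2%, 6.41 to 47.6), led by ELL (5 of 32) and MLLT6 (4 of 9). HCFC1, WDR5 and SIRT3 of the first list and DOT1L of the second lay outside the span.

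Some alone peaks overlapped miRNA genes. Of 1305 hairpins examined in the span, 22 (1.69%) overlapped an alone peak and 87 (6.67%) another H4K16ac peak. The 4 strongest of these alone peaks overlapped MIR4695 (−log10 q 12.9), MIR6754 (10.2), MIR4294 (10.1) and MIR140 (9.95). MIR140, a miRNA of cartilage inside WWP2, lay whole within its peak (chr16:69932930-69933356), 7811 bp from any peak of another list. Its mature sequences from RefSeq are given as an example of a hairpin inside an alone peak, with the seed, bases 2 to 8, in capitals, and the seeds differ.
hsa-miR-140-5p: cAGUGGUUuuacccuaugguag
hsa-miR-140-3p: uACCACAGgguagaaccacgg
MIR455, in COL27A1, lay under an alone peak of lower −log10 q (6.14), 31.7 kb from any other list.

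Every chromosome held alone peaks, at densities from 0.965 per Mb on X and 1.12 on 13 to 18.5 on 19 and 29.3 on 22. The share of H4K16ac peaks that were alone had a median of 34.0% over the 23 chromosomes. It was lowest on 19 (20.2%, 19 to 21.4) and X (21.3%, 18.2 to 24.6) and highest on 14 (42.5%, 39.8 to 45.2), 20 (42.0%, 39.2 to 44.8) and 3 (41.7%, 40 to 43.5). Chromosome 19 thus had the densest H4K16ac of all, at 91.6 peaks per Mb, and the lowest share alone, whereas chromosome 22, at 83.4 per Mb, had 35.1% alone. The copy number of chromosomes in this line was not part of the data, and its part in these densities was not tested.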

How the data were processed

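The analysis began from called peaks. The submitters' processing notes name the build hg38 and the tools MACS2 2.1.0, Bowtie 1.1.2, Trimmomatic 0.33 and bcl2fastq 2.17. For settings, duplicate reads, multiply matching reads and use of the input the answer is the same: not given in the sources used here. Per the labels' protocols, libraries were selected for 250 to 450 bp, which limits the resolution of a peak edge. The deposited lists, 1 per library, give for each peak the fold enrichment (a linear ratio at the summit, by the authors), −log10 p and −log10 q, a summit offset and a deposited display score that was not used.

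Overlap, gap and position were computed with Python 3.11.15, numpy 2.4.6 and pandas 2.3.3, and intervals with scipy 1.17.1: exact Clopper-Pearson for shares and exact order statistics for medians, both at 95%. The interval functions were checked on simulated data. Genes, promoter windows, strands and miRNAs came from RefSeq tables of GRCh38.p14, the assembly of hg38. The gene table gives no exons or introns, so these were not assigned, and strand was known for 79.2% of 19451 protein-coding genes through the promoter table, which was used without chromosome 8, as was the miRNA table. Gaps were measured to all peaks of the other lists, chromosome ends included. No test was run, since each antibody had 1 library. Gene lists were counted over genes wholly in the span, where a host can be seen. Named genes follow rules by strength, width, number, density, share alone, remoteness and list membership. The peaks and gene lists were chosen with earlier results of these data known. Promoters, segments along genes, runs and miRNAs were added after the lists were seen. Peaks are not expression, so the line's identity was not checked. Some results that these rules pick are not reported here.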

Additional observations from a re-analysis of the deposited data

Results flagged for a closer look

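H4K16ac peaks also passed the threshold outside the span described. Within 5 Mb of chromosome ends there were 28557 H4K16ac peaks, of which 7623 overlapped no other list (26.7%, exact binomial 95% interval 26.2 to 27.2). These peaks numbered 33.1 per Mb, against 5.79 alone peaks per Mb in the span. All H4K16ac peaks numbered 124 per Mb near chromosome ends and 17.2 per Mb in the span, so the whole list was denser there. A further 22 H4K16ac peaks lay on sequences not placed on chromosomes 1 to 22 or X. They stand here because the comparisons above do not use these regions, and no control list was used for them.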

How the results depend on the processing

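No paired analysis was possible because each antibody had 1 library and no result came from a test. The share of peaks inside genes and away from their ends stayed between 65.0% and 73.0% under the alternatives that kept protein-coding genes (73.5% with all annotated genes), and that at gene ends between 6.4% and 13.3%.

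With only H4K16ac peaks of −log10 q of at least 5, 10620 peaks were alone (28.6%), with 73.0% inside protein-coding genes, 14.2% outside genes, a median width of 251 bp and a median gap of 2124 bp. With other lists limited to a −log10 q of at least 5, 37.2% were alone, with 230 bp and 2626 bp. With at least 50% of the peak covered as overlap, 39.4% were alone, with 7.96% at gene ends, 237 bp and 1499 bp. With no other peak within 1 kb, 22.7% were alone, with 6.4% at gene ends, 223 bp and 4894 bp. With no margin at chromosome ends, 31.1% were alone, with 70.5% inside genes, 6.48% at gene ends, 17.2% outside genes, 231 bp and 1682 bp.

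Without both H2AZ lists in the rule, 42.0% were alone, with 65.0% inside genes, 9.14% at ends, 19.2% outside, 230 bp and 4311 bp. Without H3.3, 25503 peaks (52.9%) were alone, with 10.3% at ends, 13.1% outside, 251 bp and 4933 bp. Without H3K79me2, 35.2% were alone, with 72.6% inside and 14.8% outside. A 2 kb window at gene ends gave 66.9% inside and 13.3% at ends. All annotated genes of at least 1 kb in place of protein-coding genes gave 73.5% and 11.8%, and protein-coding genes alone left 20.8% outside. The cause of these shifts was not tested.

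Peak lists from single libraries of unknown depth limit all counts: a missing overlap is a missing call, not a measured absence, and no second library of any antibody shows how often weak peaks recur.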
